A study of Mus musculus with 14 samples.

Results

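The genes described here are 35 members of a pair of linked stress pathways: the tumour suppressor p53 with its inhibitor and target genes (18 members), and the integrated stress response with the unfolded protein response (17 members). The members are a fixed list of gene symbols, matched to the mouse Ensembl identifiers of the deposited count table through GENCODE M21. All 35 were found among the 43346 genes of the table, and 33 of them were among the 18676 genes left by a filter on low counts. Tnfrsf10b and Trib3 did not pass it. The libraries were made with SMART-Seq v4, a kit that makes cDNA along whole transcripts from few cells, from about 800 to 1000 live GFP-positive cells each, sorted from the hippocampus of C57BL/6 wild-type mice at day 14. The submitters call the cells abGCs, which is the usual short form for adult-born granule cells, the neurons that the dentate gyrus adds in adult life. The DREADD Pilo group (3 libraries) and the CAG-GFP Pilo group (4 libraries) came from mice given pilocarpine at 300 mg/kg, which drives muscarinic receptors and causes status epilepticus; diazepam ended it after 3 h, and scopolamine methyl nitrate and terbutaline were given before. The DREADD Sham group (4 libraries) and the CAG-GFP Sham group (3 libraries) had no seizures. DREADDs are designer receptors that answer to clozapine-N-oxide (CNO); the names of the DREADD Pilo libraries carry hm4Di, an inhibitory one. The labels give CNO for all groups, describe DREADD Pilo cells as silenced, and name no promoter for the DREADD; in the CAG-GFP groups the name gives the ubiquitous CAG promoter for GFP. The age of the mice is not given in the sources used here. Whether the libraries of a group are from different mice is not in the labels, and p-values here cover the spread among libraries, which may be technical.

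p53 is a transcription factor that is held at a low level by the ubiquitin ligase Mdm2, itself a p53 target, and accumulates mostly through protein stability after DNA damage and other stress. Its targets stop the cell cycle, repair damage or set off apoptosis. In the integrated stress response, kinases such as the endoplasmic reticulum sensor PERK (gene Eif2ak3) phosphorylate the translation factor eIF2alpha, which lowers protein synthesis and favours translation of the transcription factor ATF4. ATF4 then raises genes of amino acid supply and, under lasting stress, the factor CHOP (gene Ddit3). The unfolded protein response adds chaperones of the endoplasmic reticulum through XBP1 and ATF6. Much of the control of p53, ATF4 and XBP1 acts on protein, translation or splicing, which gene counts do not measure.

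Library totals ran from 10613291 to 38614639 counts. The libraries fell into sets of 7 by their share of counts on annotated pseudogenes, which also differ in the style of their library names: 4.33% to 8.12% in the set called library set 2 here, against 0.117% to 0.2% in library set 1. All DREADD Pilo libraries were in set 2 and all CAG-GFP Sham libraries in set 1, while CAG-GFP Pilo and DREADD Sham had 2 libraries in each. Library set and group therefore cannot be told apart for DREADD Pilo against CAG-GFP Sham, and in the other comparisons the groups differ in their share of each set. Markers of the labelled cell type varied: the 12 immature neuron markers summed to 17.3 to 612 CPM (counts scaled by library size) in DREADD Pilo, 370 to 999 CPM in CAG-GFP Pilo, 536 to 2064 CPM in DREADD Sham and 254 to 315 CPM in CAG-GFP Sham. The 12 mature granule cell markers summed to 108 to 716 CPM in DREADD Pilo, 1505 to 5566 CPM in CAG-GFP Pilo, 318 to 2116 CPM in DREADD Sham and 681 to 989 CPM in CAG-GFP Sham. In CAG-GFP Sham most of these sums came from general neuronal genes (Snap25 at 463 to 665 CPM, Stmn2 at 140 to 210 CPM), while Igfbpl1, Eomes, C1ql2, Plk5 and Trpc6 had no counts. Other listed markers had counts there, such as Calb1 (51.0 to 67.8 CPM) and Prox1 (5.63 to 14.6 CPM). Zeros were found in other groups too. DREADD Pilo 3 had none for Dcx, Tubb3, Neurod1, Prox1 and Calb2, and CAG-GFP Pilo 4 none for Dcx, Prox1, Eomes and Igfbpl1. The 12 astrocyte markers summed to 1254 to 3458 CPM in DREADD Pilo, 665 to 6238 CPM in CAG-GFP Pilo, 1876 to 4812 CPM in DREADD Sham and 28160 to 29597 CPM in CAG-GFP Sham. The 10 oligodendrocyte markers summed to 403 to 43757 CPM in DREADD Pilo, 1351 to 37872 CPM in CAG-GFP Pilo, 19029 to 40847 CPM in DREADD Sham and 596 to 704 CPM in CAG-GFP Sham. For the 11 microglia markers the sums were 212 to 32207, 6159 to 11582, 788 to 12106 and 4765 to 5112 CPM, in the same order. Microglia markers had a positive fold change in 11 of 11 for DREADD Pilo against DREADD Sham and 9 of 11 against CAG-GFP Pilo. For endothelium these were 8 and 10 of 10 markers. For ependyma and choroid plexus they were 9 and 9 of 9, and for oligodendrocyte precursors 7 and 7 of 8. Oligodendrocytes had 6 and 7 of 10, pericytes and smooth muscle 0 and 7 of 8, and astrocytes 2 and 4 of 12. Among tested neuronal markers, positive were 0 and 3 of 11 for immature neurons, 1 and 0 of 12 for mature granule cells and 1 and 0 of 6 for interneurons. The part of cell content in the DREADD Pilo differences was not tested. DREADD Pilo 3 stood apart, with 191098 CPM of ependyma and choroid plexus markers and 25.8% of its counts on mitochondrial genes, as did CAG-GFP Pilo 4, with 9372 genes detected against up to 20863 elsewhere. The mitochondrial share of counts was 2.58% and 4.50% in the other DREADD Pilo libraries, 12.7% and 13.9% in CAG-GFP Pilo 1 and 2, 2.06% and 2.25% in CAG-GFP Pilo 3 and 4, 2.21% to 4.90% in DREADD Sham and 11.6% to 12.7% in CAG-GFP Sham. Its part in the differences from CAG-GFP Sham was not tested. In such bulk samples, fewer cells of a type and less RNA per cell cannot be told apart.

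Across all 14 libraries, the chaperone gene Hspa5 had the highest member level per length, a mean over the 4 group means of 152 CPM per kb of exon. The serine synthesis genes Psat1 (69.5 CPM per kb) and Phgdh (62.1 CPM per kb) came next, followed by Herpud1 (59.0), Atf4 (56.2), Ddit3 (54.9) and Bax (47.5), all in CPM per kb. The lowest were Trib3 (0.109 CPM per kb), Tnfrsf10b (0.135), Eda2r (0.270) and Bbc3 (0.583). Counts were present in all 14 libraries for 16 members, and 5 members averaged under 5 CPM in every group, while 12 averaged at least 100 CPM in some group. A count of 0 in a library allows a level of up to 0.0561 to 0.334 CPM (3 counts), for counting error only.

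**Figure D1:**
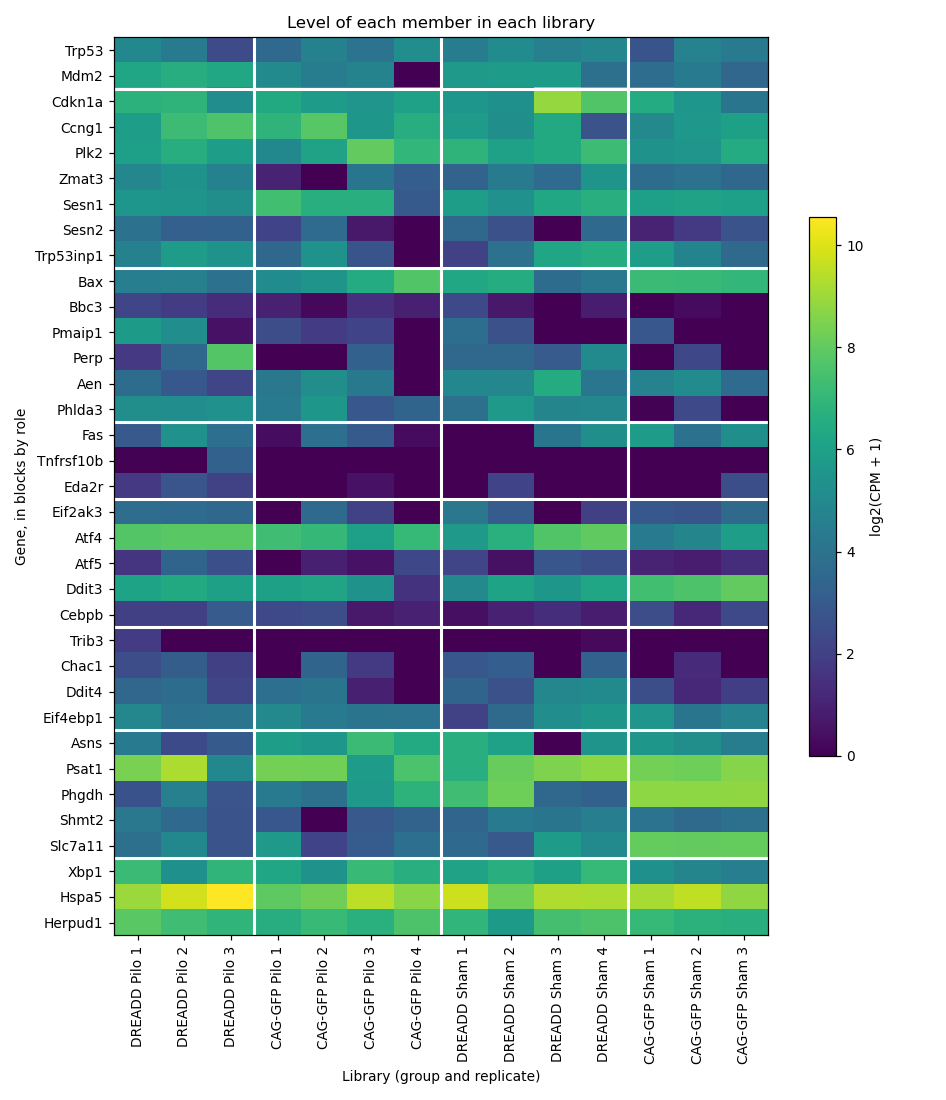
Level of the 35 members (rows, in blocks by role) in the 14 libraries (columns, by group and replicate), as log2(CPM + 1), with CPM scaled by library size and TMM factor. Hspa5 is the brightest row, Trib3 and Tnfrsf10b are dark in nearly all libraries, and Slc7a11 and Phgdh are brighter in the 3 CAG-GFP Sham libraries than in the other 11.

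In cells from pilocarpine-treated mice (CAG-GFP Pilo against CAG-GFP Sham), no member passed the edgeR quasi-likelihood test at an adjusted p of 0.05, in a comparison where 0.241% of all tested genes did. The members nearest to it were the cystine transporter gene Slc7a11, the serine synthesis gene Phgdh and Ddit3, all lower in every CAG-GFP Pilo library, and Atf4, Xbp1 and the apoptosis gene Phlda3, all higher in every CAG-GFP Pilo library. These 6 of 33 members had an unadjusted p under 0.05, against 15.4% of all tested genes. With DESeq2 in place of edgeR, 5 of 33 members passed, against 2203 of the 18676 tested genes. They were Atf4, Phlda3 and Xbp1 (higher) and Phgdh and Slc7a11 (lower). Among the 25 members with at least 5 CPM in the higher group, 4 were higher and 5 lower in every CAG-GFP Pilo library, against 9.01% and 16.5% of such genes. The members' median log2 fold change was 0.23, against 0.41 for all tested genes, and 18 of 33 members had a positive one, against 58.6% of tested genes.

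In DREADD-expressing cells (DREADD Pilo against DREADD Sham), no member and no other gene passed (0% of tested genes). Phgdh alone had an unadjusted p under 0.05, against 5.18% of tested genes. DESeq2 called 0 members and 158 of the 18676 tested genes. Mdm2 was higher and the nuclease gene Aen lower in every DREADD Pilo library, the only such members of 30 with at least 5 CPM, against 4.52% and 2.77% of such genes. The members' median log2 fold change was 0.29, against 0.07 for all tested genes, and 19 members had a positive one, against 52.3% of tested genes.

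Between the groups with seizures (DREADD Pilo against CAG-GFP Pilo), again 0% of tested genes and no member passed. DESeq2 called 0 members and 172 of the 18676 tested genes. Hspa5 (higher), Bax and the asparagine synthetase gene Asns (lower) had an unadjusted p under 0.05, against 5.36% of tested genes. Mdm2, Zmat3 and Atf4 were higher and Bax and Asns lower in every DREADD Pilo library, of 30 members with at least 5 CPM, against 6.26% and 4.08% of such genes. The members' median log2 fold change was 0.77, against 0.28 for all tested genes, and 24 of 33 members had a positive one, against 58.4% of all tested genes.

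Between the groups without seizures (DREADD Sham against CAG-GFP Sham), no member passed the edgeR test, against 0.3% of tested genes. An unadjusted p under 0.05 was found for 6 members, Cdkn1a, Phlda3, Atf4 and Xbp1 (higher) and Ddit3 and Slc7a11 (lower), against 18.6% of tested genes. DESeq2 called 4 of them, Atf4, Phlda3 and Xbp1 as higher and Slc7a11 as lower. It called 2655 of the 18676 tested genes. Of 28 members with at least 5 CPM in the higher group, 4 were higher and 4 lower in every DREADD Sham library, against 11.5% and 16.5% of such genes. The members' median log2 fold change was 0.61, against 0.53 for all tested genes, and 22 members had a positive one, against 61.1% of tested genes. This comparison and that of CAG-GFP Pilo share the CAG-GFP Sham libraries, so their values for a gene are not independent of each other.

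**Figure D2:**
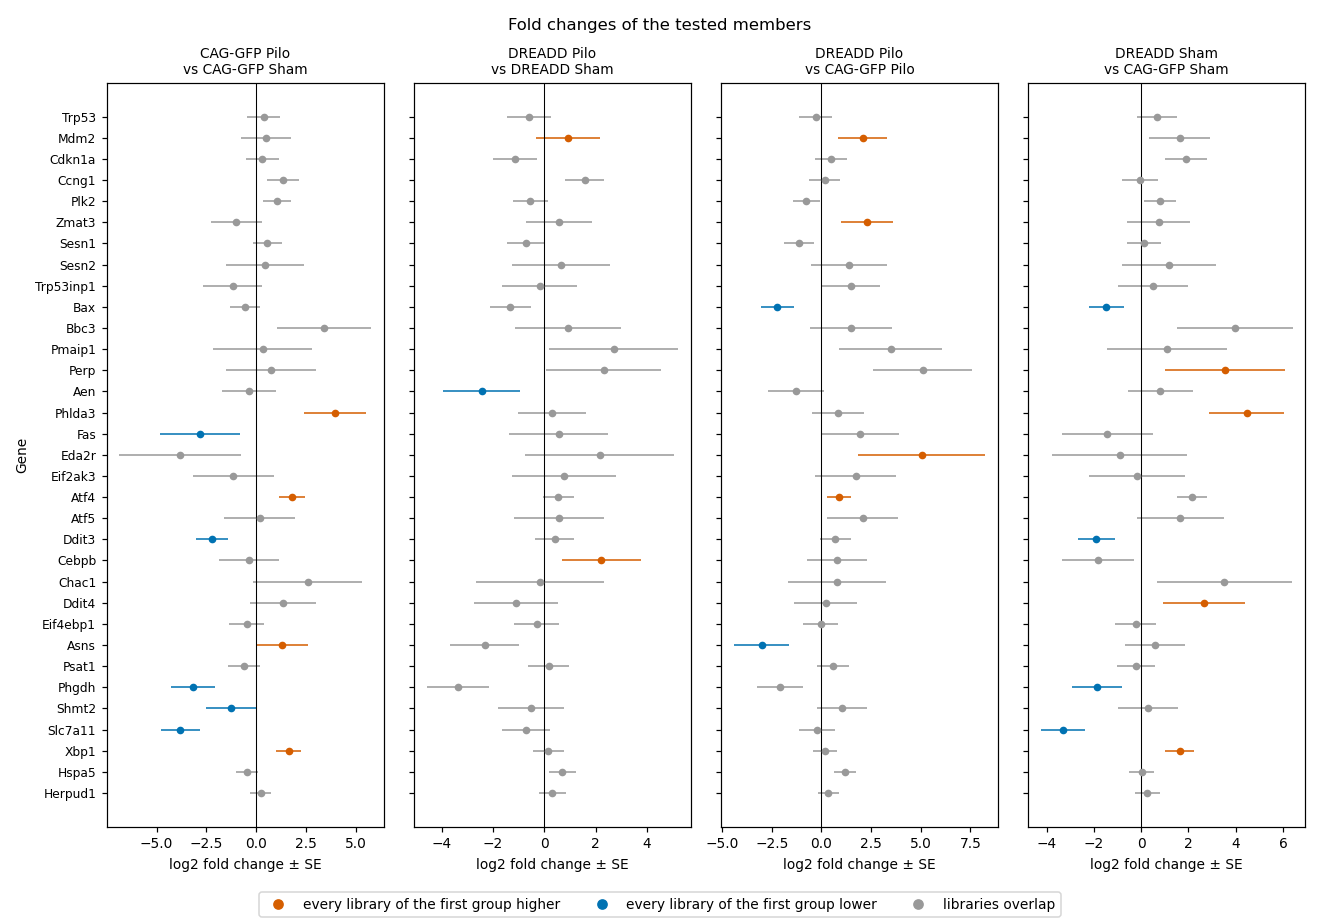
Log2 fold change (x axis, ± SE from the edgeR quasi-likelihood fit) of the 33 tested members (y axis) in each of 4 comparisons, with colours for members whose libraries do not overlap between the groups. The error bar of Eda2r is wide, and Slc7a11 at -3.81 ± 0.96 and -3.31 ± 0.95 is clear of 0 in both comparisons with CAG-GFP Sham.

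Trp53, the gene of p53, stood at chromosome 11, 69580359 to 69591873 (GRCm38, plus strand). Its level was 29.0, 19.1 and 4.35 CPM in the 3 DREADD Pilo libraries, 11.2, 24.2, 15.1 and 34.9 CPM in CAG-GFP Pilo, 21.2, 32.8, 23.3 and 28.9 CPM in DREADD Sham, and 5.72, 24.6 and 19.3 CPM in CAG-GFP Sham. The 4 groups overlapped throughout. Its log2 fold change was 0.37 ± 0.84 (SE) for CAG-GFP Pilo against CAG-GFP Sham (edgeR adjusted p = 0.883) and -0.60 ± 0.85 for DREADD Pilo against DREADD Sham (edgeR adjusted p = 1). It was -0.29 ± 0.84 for DREADD Pilo against CAG-GFP Pilo and 0.68 ± 0.85 for DREADD Sham against CAG-GFP Sham, neither past the test.

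Mdm2, the ubiquitin ligase that holds p53 down, had its highest levels in the silenced seizure group. It had 74.4, 95.0 and 76.8 CPM in DREADD Pilo, 32.3, 20.9, 25.0 and 0 CPM in CAG-GFP Pilo, 49.2, 54.5, 56.4 and 13.9 CPM in DREADD Sham, and 12.6, 19.4 and 10.2 CPM in CAG-GFP Sham. All 3 DREADD Pilo libraries lay above all 11 others. Neither difference passed the test: the log2 fold change was 2.07 ± 1.25 against CAG-GFP Pilo (edgeR adjusted p = 0.893) and 0.92 ± 1.23 against DREADD Sham (edgeR adjusted p = 1). Without DREADD Pilo 3 the values for Mdm2 were 2.10 and 0.93, and within library set 2 they were 1.64 ± 0.73 and 1.22 ± 0.72. Mdm4, a relative of Mdm2 that also restrains p53 and is one of the 25 further p53 genes, had the smallest p of the other pathway genes in that comparison. It had 89.8, 90.3 and 48.6 CPM in DREADD Pilo, against 19.9, 3.13, 31.9 and 10.3 CPM in CAG-GFP Pilo (log2 fold change 2.22 ± 0.71, edgeR adjusted p = 0.882). The DREADD Pilo libraries of Mdm4 were all higher.

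Among the 7 targets that act on cell cycle and growth, Cdkn1a encodes p21, the cyclin-dependent kinase inhibitor through which p53 arrests the cycle. It had 108, 117 and 34.9 CPM in DREADD Pilo, 84.5, 55.3, 44.5 and 64.0 CPM in CAG-GFP Pilo, 45.7, 38.3, 472 and 204 CPM in DREADD Sham, and 89.7, 45.4 and 16.2 CPM in CAG-GFP Sham. The high values were DREADD Sham 3 and 4, both of library set 2, and the 2 DREADD Sham libraries of set 1 lay inside the CAG-GFP Sham range. Its log2 fold change for DREADD Sham against CAG-GFP Sham was 1.91 ± 0.89 (edgeR adjusted p = 0.267), and within library set 1 it was -0.28 ± 0.75. For CAG-GFP Pilo against CAG-GFP Sham it was 0.30 ± 0.84 (edgeR adjusted p = 0.908), but -0.41 with library set as a covariate.

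Zmat3, an RNA-binding p53 target, had 28.2, 41.3 and 23.7 CPM in DREADD Pilo, against 1.04, 0, 16.3 and 7.83 CPM in CAG-GFP Pilo. Every DREADD Pilo library was higher (log2 fold change 2.30 ± 1.31, edgeR adjusted p = 0.882), and within library set 2 the value was 5.90 ± 1.78 (edgeR adjusted p = 0.770), against 2 CAG-GFP Pilo libraries at 1.04 and 0 CPM. Zmat3 had 9.31 to 43.5 CPM in DREADD Sham, which overlapped with both, and 11.0 to 14.5 CPM in CAG-GFP Sham, inside the CAG-GFP Pilo range. Ccng1, the gene of cyclin G1, had the smallest p of the p53 members for DREADD Pilo against DREADD Sham. Its levels were 57.9, 148 and 197 CPM in DREADD Pilo and 54.8, 37.3, 83.8 and 5.53 CPM in DREADD Sham, which overlap (log2 fold change 1.57 ± 0.77, edgeR adjusted p = 0.967). Its mean ± SD was 120.5 ± 75.3 CPM in the 4 CAG-GFP Pilo libraries and 47.0 ± 16.4 CPM in the 3 of CAG-GFP Sham.

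The remaining 4 targets of this role overlapped between the groups of every comparison. Sesn1 and Sesn2 encode sestrins, which restrain the growth kinase mTORC1. Sesn1 was even over DREADD Pilo (36.6 to 45.7 CPM) and CAG-GFP Sham (60.4 to 66.0 CPM) and ranged widely over CAG-GFP Pilo (6.94 to 164 CPM). Sesn2 was lower, at most 14.6 CPM in any library. Trp53inp1, which links p53 to autophagy and cell death, ranged over 23.7 to 53.6 CPM in DREADD Pilo, 0 to 41.1 CPM in CAG-GFP Pilo, 3.12 to 90.5 CPM in DREADD Sham and 11.5 to 59.5 CPM in CAG-GFP Sham. The polo-like kinase gene Plk2, which neurons also induce with activity, had a mean ± SD of 71.1 ± 20.2 CPM in the 3 DREADD Pilo libraries, 120.5 ± 101 CPM in the 4 of CAG-GFP Pilo, 104 ± 38.1 CPM in the 4 of DREADD Sham and 58.8 ± 26.9 CPM in the 3 of CAG-GFP Sham.

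**Figure D3:**
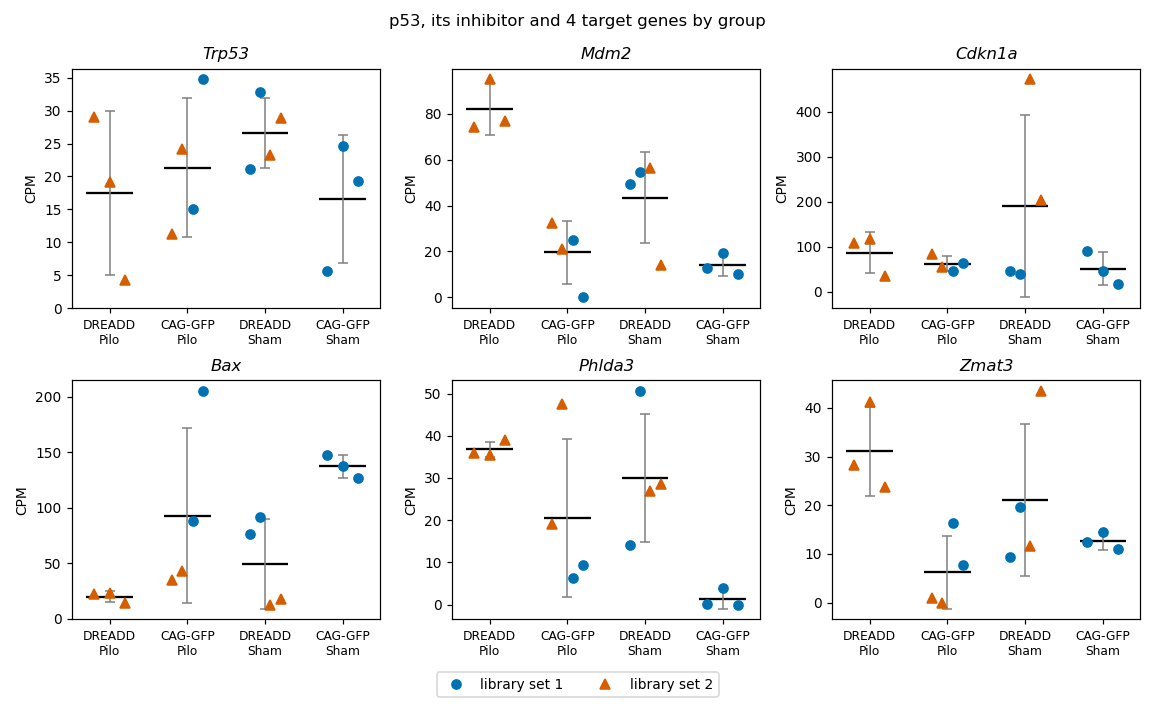
CPM (y axis) of Trp53, Mdm2, Cdkn1a, Bax, Phlda3 and Zmat3 in each library by group, with the mean (bar), the SD (whiskers) and symbols for the 2 library sets. The 3 DREADD Pilo libraries of Mdm2 lie at 74.4 to 95.0 CPM above the others, and Bax separates by library set.

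Of the 6 targets of cell death, Bax, the effector that permeabilises the outer mitochondrial membrane, followed the library sets. It had 22.0, 23.2 and 14.2 CPM in DREADD Pilo, 34.5, 43.1, 87.9 and 205 CPM in CAG-GFP Pilo, 76.7, 91.8, 12.3 and 17.8 CPM in DREADD Sham, and 147, 138 and 127 CPM in CAG-GFP Sham. All 7 libraries of set 1 (76.7 to 205 CPM) were above all 7 of set 2 (12.3 to 43.1 CPM), as they were for 2 members in all, Bax and Phgdh, and for 3.82% of tested genes. The log2 fold change of Bax was -2.23 ± 0.82 for DREADD Pilo against CAG-GFP Pilo (edgeR adjusted p = 0.882), and -0.84 ± 0.46 with library set as a covariate. It was -1.47 ± 0.76 for DREADD Sham against CAG-GFP Sham (edgeR adjusted p = 0.304), and -0.84 ± 0.45 with the covariate. Part of the Bax exons, 192 bases, is shared with an overlapping gene on the same strand, Gm45808.

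Phlda3, a p53 target that restrains the survival kinase Akt, was nearly absent from CAG-GFP Sham. It had 36.0, 35.5 and 38.9 CPM in DREADD Pilo, 19.2, 47.5, 6.27 and 9.48 CPM in CAG-GFP Pilo, 14, 50.7, 27.0 and 28.6 CPM in DREADD Sham, and 0.0497, 4.0 and 0 CPM in CAG-GFP Sham. Every library of the other groups was higher. Phlda3 had a log2 fold change of 3.92 ± 1.55 for CAG-GFP Pilo against CAG-GFP Sham (edgeR adjusted p = 0.288, DESeq2 adjusted p = 0.0155) and 4.47 ± 1.59 for DREADD Sham against CAG-GFP Sham (edgeR adjusted p = 0.224, DESeq2 adjusted p = 0.00386). These 2 values rest on CAG-GFP Sham 2: without it they were 9.40 and 9.95.

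Perp, a p53 target of desmosomes, ranged from 0 to 210 CPM. DREADD Pilo 3 held 210 CPM, against 2.39 and 10.9 CPM in the other DREADD Pilo libraries, and it is the library with the high sum of ependyma and choroid plexus markers. For DREADD Pilo against CAG-GFP Pilo the log2 fold change of Perp was 5.10 ± 2.48 (edgeR adjusted p = 0.882), and 1.57 without DREADD Pilo 3. Perp was 10.4, 10.8, 7.24 and 31.5 CPM in DREADD Sham, against 0, 3.85 and 0 CPM in CAG-GFP Sham, with no overlap (log2 fold change 3.54 ± 2.55, edgeR adjusted p = 0.502). Aen, the gene of a p53-induced nuclease, had 12.2, 6.44 and 3.68 CPM in DREADD Pilo, against 29.0, 28.3, 88.8 and 16.6 CPM in DREADD Sham. All DREADD Pilo libraries of Aen were lower (log2 fold change -2.45 ± 1.48, edgeR adjusted p = 1). Of the BH3-only genes Bbc3 (PUMA) and Pmaip1 (NOXA), Bbc3 reached at most 4.05 CPM in any library, and Pmaip1 had 53.4, 35.1 and 0.446 CPM in DREADD Pilo, against 0 to 4.61 CPM in CAG-GFP Pilo. The groups of Pmaip1 overlapped through DREADD Pilo 3 (log2 fold change 3.49 ± 2.59, edgeR adjusted p = 0.943).

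Of the 3 death receptors, Fas had the highest mean level per length. It had 6.76, 38.9 and 13.4 CPM in DREADD Pilo, 0.282, 13.3, 6.84 and 0.243 CPM in CAG-GFP Pilo, 0, 0, 16.2 and 37.4 CPM in DREADD Sham, and 55.2, 14.9 and 37.7 CPM in CAG-GFP Sham. All CAG-GFP Pilo libraries of Fas were below all CAG-GFP Sham libraries (log2 fold change -2.80 ± 2.00, edgeR adjusted p = 0.507). Eda2r had 2.39, 5.89 and 3.12 CPM in DREADD Pilo, against 0, 0, 0.420 and 0 CPM in CAG-GFP Pilo. Tnfrsf10b, the mouse TRAIL receptor gene, had counts in 2 libraries only, 8.81 CPM in DREADD Pilo 3 and 0.0497 CPM in DREADD Pilo 1.

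For the integrated stress response, promoter sequence is shown where ATF4 is known to act. The C/EBP-ATF response element (letters TGATGNAA, either strand) was searched in 300-base windows of RefSeq promoters (GRCm38.p6, 250 bases before to 50 after the start), which were given for 29 of the 35 members. It was found for 5 of these 29 members, Asns, Chac1, Herpud1, Slc7a11 and Trib3, and in 3.97% of all 32851 windows. Here members are counted as genes, and the shares are over single windows. The endoplasmic reticulum stress response element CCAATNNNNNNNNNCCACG, the site at which ATF6 and XBP1 act, was found for Hspa5 alone of the members and in 0.119% of all windows. The stretches around the matches before the start are printed 5′ to 3′ on the gene's strand, with the matched letters in capitals, to be read beside the levels of these members; that of Trib3, whose match does not lie wholly before the start, is not printed.
Asns, chr6:7693214-7693243, minus strand: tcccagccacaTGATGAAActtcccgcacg
Chac1, chr2:119351009-119351096, plus strand: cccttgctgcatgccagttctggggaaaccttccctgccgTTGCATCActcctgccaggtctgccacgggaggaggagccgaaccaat
Herpud1, chr8:94386277-94386364, plus strand: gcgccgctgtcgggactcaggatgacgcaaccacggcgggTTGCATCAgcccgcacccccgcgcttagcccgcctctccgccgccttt
Slc7a11, chr3:50443615-50443719, minus strand: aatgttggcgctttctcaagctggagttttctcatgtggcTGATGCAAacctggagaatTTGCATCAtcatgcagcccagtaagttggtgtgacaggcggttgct
Hspa5, chr2:34772020-34772048, plus strand: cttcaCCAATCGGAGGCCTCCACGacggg
Slc7a11 held 2 matches, on opposite strands and in the same stretch. For p53, only a 10-base half-site was searched, which is part of a full p53 site. The half-site was found for 8 members (Aen, Atf5, Bax, Ccng1, Cdkn1a, Mdm2, Sesn1 and Trp53) and in 8.36% of all windows. A match is a description of the letters, and a window with none says nothing of the factor.

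Among the sensor and transcription factor genes, Atf4, the gene of the central factor, had its lowest mean in CAG-GFP Sham. Its levels were 209, 229 and 232 CPM in DREADD Pilo, 157, 129, 60.6 and 132 CPM in CAG-GFP Pilo, 51.7, 104, 205 and 250 CPM in DREADD Sham, and 19.1, 26.9 and 57.4 CPM in CAG-GFP Sham. Each CAG-GFP Pilo library lay above each CAG-GFP Sham library and below each DREADD Pilo library, while DREADD Sham overlapped with all other groups. The library sets nearly separated as well, at 19.1 to 132 CPM in set 1 and 129 to 250 CPM in set 2. All DREADD Pilo libraries are of set 2 and all CAG-GFP Sham libraries of set 1. Atf4 had a log2 fold change of 1.80 ± 0.64 for CAG-GFP Pilo against CAG-GFP Sham (edgeR adjusted p = 0.285, DESeq2 adjusted p = 0.0483) and 2.15 ± 0.65 for DREADD Sham against CAG-GFP Sham (edgeR adjusted p = 0.173, DESeq2 adjusted p = 0.00767). Within library set 1 these Atf4 values were 1.47 ± 0.67 and 1.15 ± 0.67, and neither passed. All 10 oligodendrocyte markers and all 8 markers of their precursors had a positive fold change in both comparisons as well, 3 of the precursor markers past the test in each, and the part of such RNA in the levels of Atf4, Phlda3 and Xbp1 was not tested. For DREADD Pilo against CAG-GFP Pilo, Atf4 was at 0.90 ± 0.60 (edgeR adjusted p = 0.922), and for DREADD Pilo against DREADD Sham 0.55 ± 0.60 (edgeR adjusted p = 1). Over the other settings, the value against CAG-GFP Pilo ran from 0.37 to 1.06.

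Ddit3, the gene of CHOP that ATF4 can induce, had its highest levels in CAG-GFP Sham. It had 69.5, 82.9 and 63.4 CPM in DREADD Pilo, 63.0, 71.0, 41.4 and 1.94 CPM in CAG-GFP Pilo, 30.4, 67.9, 47.1 and 73.8 CPM in DREADD Sham, and 163, 192 and 259 CPM in CAG-GFP Sham. The 3 CAG-GFP Sham libraries were above all 11 others, which overlapped. Ddit3 had a log2 fold change of -2.21 ± 0.79 for CAG-GFP Pilo against CAG-GFP Sham (edgeR adjusted p = 0.285) and -1.90 ± 0.78 for DREADD Sham against CAG-GFP Sham (edgeR adjusted p = 0.241). DESeq2 did not call Ddit3 in either, with adjusted p = 0.0745 and 0.143. Ddit3 shares 68 exon bases with Mars on the opposite strand, and the strand setting of the counting is not given in the sources used here.

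The other 3 genes of this role had at most 17.2 CPM in any library. The kinase gene Eif2ak3 had 10.6 to 12.5 CPM in DREADD Pilo, 0 to 11.1 CPM in CAG-GFP Pilo, 0 to 17.2 CPM in DREADD Sham and 5.63 to 11.5 CPM in CAG-GFP Sham. Atf5, a relative of Atf4, was at most 9.68 CPM in any library. Cebpb, a partner of the ATF factors, was 2.98, 2.95 and 7.25 CPM in DREADD Pilo, against 0.369, 0.974, 1.63 and 0.783 CPM in DREADD Sham. The libraries did not overlap (log2 fold change 2.22 ± 1.53, edgeR adjusted p = 1), and 312 exon bases of Cebpb lie on the opposite strand of Tmem189.

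Atf3, another ATF4-induced factor and one of the 30 further genes of the integrated stress response, had 810, 512 and 209 CPM in DREADD Pilo, against 231, 78.9, 127 and 51.3 CPM in CAG-GFP Pilo. DREADD Pilo 1 and 2 were above the CAG-GFP Pilo range of Atf3 and DREADD Pilo 3 inside it (log2 fold change 2.06 ± 0.68, edgeR adjusted p = 0.882).

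The effector role held 4 members. Ddit4 encodes REDD1, an inhibitor of mTORC1, and had 9.56, 5.13, 28.4 and 31.9 CPM in DREADD Sham, against 4.78, 1.23 and 2.88 CPM in CAG-GFP Sham. All DREADD Sham libraries of Ddit4 were higher (log2 fold change 2.66 ± 1.75, edgeR adjusted p = 0.443), and with library set as a covariate the value was 0.75 ± 1.41. Eif4ebp1, which blocks cap-dependent translation, had a mean ± SD of 19.7 ± 7.56 CPM in the 3 DREADD Pilo libraries, 20.2 ± 7.21 CPM in the 4 of CAG-GFP Pilo, 24.3 ± 20.4 CPM in the 4 of DREADD Sham and 28.4 ± 14.2 CPM in the 3 of CAG-GFP Sham. Chac1, a glutathione-degrading enzyme, reached at most 9.49 CPM in any library. Trib3, a pseudokinase that inhibits ATF4, had counts in 3 libraries and at most 2.59 CPM.

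Of the 5 amino acid supply genes, Slc7a11 had the smallest p of the members in both comparisons with CAG-GFP Sham. It encodes xCT, the light chain of the cystine-glutamate antiporter, which astrocytes are known to express. It had 13.7, 29.0 and 5.46 CPM in DREADD Pilo, 50.3, 3.32, 7.30 and 13.6 CPM in CAG-GFP Pilo, 11.3, 6.69, 55 and 32.4 CPM in DREADD Sham, and 265, 255 and 263 CPM in CAG-GFP Sham. The CAG-GFP Sham libraries were all above 250 CPM and the other 11 at or below 55 CPM. The log2 fold change was -3.81 ± 0.96 for CAG-GFP Pilo against CAG-GFP Sham (edgeR adjusted p = 0.147, DESeq2 adjusted p = 0.00188). It was -3.31 ± 0.95 for DREADD Sham against CAG-GFP Sham (edgeR adjusted p = 0.154, DESeq2 adjusted p = 0.0133). Within library set 1 it was -4.65 ± 0.54 (edgeR adjusted p = 0.0049) and -4.88 ± 0.55 (edgeR adjusted p = 0.00452). With library set as a covariate it was -4.85 ± 0.90 (edgeR adjusted p = 0.0355) and -4.61 ± 0.94 (edgeR adjusted p = 0.0457). Slc7a11 thus passed as lower in those fits, which within set 1 hold 2 libraries against the 3 of CAG-GFP Sham. These 3 correlated more closely with each other (0.863 to 0.868, log2 CPM) than libraries within the other groups (0.50 to 0.80). Whether they are from different mice is not in the labels, so the p-values may cover technical spread only. The fold change of each of the 12 astrocyte markers was also negative in both comparisons, with 1 and 2 of them past the test, and none was without counts in CAG-GFP Sham. The part of astrocyte RNA in the Slc7a11 level was not tested. One Slc7a11 transcript carries 483 bases at 93.4% identity to Tuba1a, an abundant tubulin gene, so some of its reads may not be assigned uniquely.

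Phgdh encodes phosphoglycerate dehydrogenase, the first enzyme of serine synthesis, and is also known in astrocytes and neural stem cells. It had 5.27, 23.4 and 5.91 CPM in DREADD Pilo, 19.2, 13.7, 50.4 and 113 CPM in CAG-GFP Pilo, 161, 298, 11.0 and 8.57 CPM in DREADD Sham, and 429, 432 and 450 CPM in CAG-GFP Sham. All set 2 libraries were at or below 23.4 CPM, and all set 1 libraries at or above 50.4 CPM. Its processed pseudogene Gm7901, 98.7% identical over 1597 bases, had no counts in any library of set 1 and 5.91 to 209 CPM in set 2. The sum of Phgdh and Gm7901 was 78.3, 71.8 and 11.8 CPM in DREADD Pilo, 67.3, 64.3, 50.4 and 113 CPM in CAG-GFP Pilo, 161, 298, 220 and 131 CPM in DREADD Sham, and 429, 432 and 450 CPM in CAG-GFP Sham. With the sums, the libraries of the 2 sets overlapped, the CAG-GFP Sham libraries stayed above all others, and all DREADD Pilo and CAG-GFP Pilo libraries lay below all DREADD Sham libraries.

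The Phgdh log2 fold change for CAG-GFP Pilo against CAG-GFP Sham was -3.15 ± 1.10 (edgeR adjusted p = 0.285, DESeq2 adjusted p = 0.0337). It was -2.56 ± 0.61 with the counts of its copies added (edgeR adjusted p = 0.119), and within library set 1 it passed, at -2.42 ± 0.48 (edgeR adjusted p = 0.0391). For DREADD Pilo against DREADD Sham, Phgdh was at -3.37 ± 1.22 (edgeR adjusted p = 0.954), at -1.90 ± 0.63 with the copies added (edgeR adjusted p = 0.953), and at 0.23 ± 1.08 within library set 2. For DREADD Pilo against CAG-GFP Pilo, the value of Phgdh moved to -0.44 with the copies added, against -2.09 without them. Adding the copies was chosen after the values were seen.

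**Figure D4:**
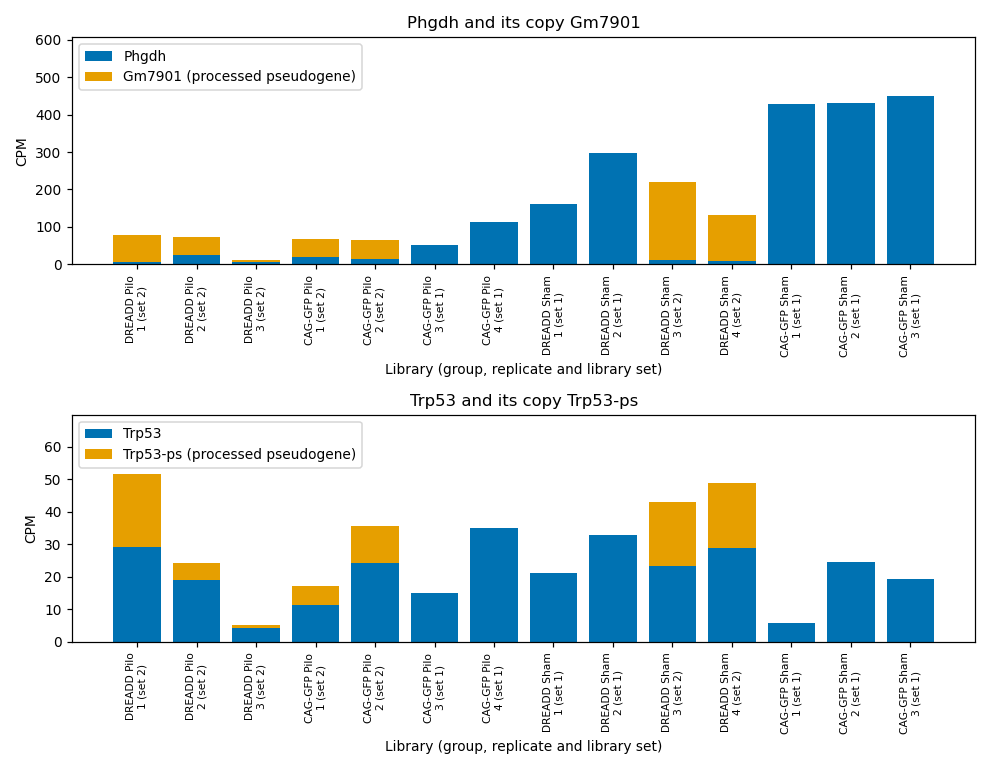
Stacked CPM (y axis) of Phgdh with its processed pseudogene Gm7901 (top) and of Trp53 with Trp53-ps (bottom) in each library (x axis, with its library set). Both pseudogenes have counts in the libraries of set 2 only, up to 209 CPM for Gm7901 and 22.7 CPM for Trp53-ps.

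The same held for copies of further members. Trp53-ps, 95.0% identical to Trp53, had no counts in set 1 and 0.780 to 22.7 CPM in set 2; with it added, the Trp53 log2 fold change for DREADD Pilo against CAG-GFP Pilo was 0.07 in place of -0.29. Gm12611, a copy of Psat1, had no counts in set 1 and 0.892 to 19.7 CPM in set 2. Gm14150, which matches Slc7a11 over 482 bases, had no counts in set 1 and 1.11 to 7.26 CPM in set 2. Gm6682, which matches Slc7a11 over 482 bases as well, had 0.0494 to 0.568 CPM in set 1 and 5.71 to 24.0 CPM in set 2. The copies of Slc7a11 were not added to its counts. Psat1, the second enzyme of serine synthesis, had 346, 610 and 29.3 CPM in DREADD Pilo, 326, 313, 56.2 and 190 CPM in CAG-GFP Pilo, 99.9, 277, 364 and 427 CPM in DREADD Sham, and 322, 297 and 402 CPM in CAG-GFP Sham. Unlike those of Phgdh, its libraries overlapped in every comparison. Psph, the third enzyme of serine synthesis and one of the further genes of the integrated stress response, had 12.1, 63.0, 72.6 and 24.3 CPM in DREADD Sham, against 229.5, 251 and 329 CPM in CAG-GFP Sham (log2 fold change -2.65 ± 0.68, edgeR adjusted p = 0.122). All DREADD Sham libraries of Psph were lower.

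Asns, which makes asparagine, passed no test. It had 20.1, 4.21 and 6.91 CPM in DREADD Pilo, 59.2, 47.4, 144 and 87.6 CPM in CAG-GFP Pilo, 101, 65.7, 0 and 43.7 CPM in DREADD Sham, and 46.7, 36.4 and 20.4 CPM in CAG-GFP Sham. The DREADD Pilo libraries were all below the CAG-GFP Pilo libraries (log2 fold change -3.02 ± 1.41, edgeR adjusted p = 0.882), and the CAG-GFP Pilo libraries were all above the CAG-GFP Sham libraries (log2 fold change 1.29 ± 1.30, edgeR adjusted p = 0.676). Asns and Atf4 thus had opposite order between the DREADD Pilo and CAG-GFP Pilo libraries. Shmt2, the mitochondrial enzyme that turns serine to glycine, had 6.30, 0, 6.81 and 9.18 CPM in CAG-GFP Pilo, against 15.3, 11.6 and 13.7 CPM in CAG-GFP Sham. The CAG-GFP Pilo libraries of Shmt2 were all lower (log2 fold change -1.27 ± 1.26, edgeR adjusted p = 0.671).

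The further transporters with the smallest p were found in the comparisons with CAG-GFP Sham. Slc1a4, a neutral amino acid transporter that carries serine, had 2.35, 6.91, 17.6 and 0.916 CPM in CAG-GFP Pilo, against 72.5, 104 and 75.7 CPM in CAG-GFP Sham (log2 fold change -3.60 ± 1.0, edgeR adjusted p = 0.198). Slc38a2, a glutamine transporter that ATF4 induces, had 90.7, 82.5, 508 and 235 CPM in DREADD Sham, against 27.8, 23.5 and 26.5 CPM in CAG-GFP Sham (log2 fold change 3.14 ± 0.81, edgeR adjusted p = 0.122). Neither passed, and in each the libraries did not overlap.

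**Figure D5:**
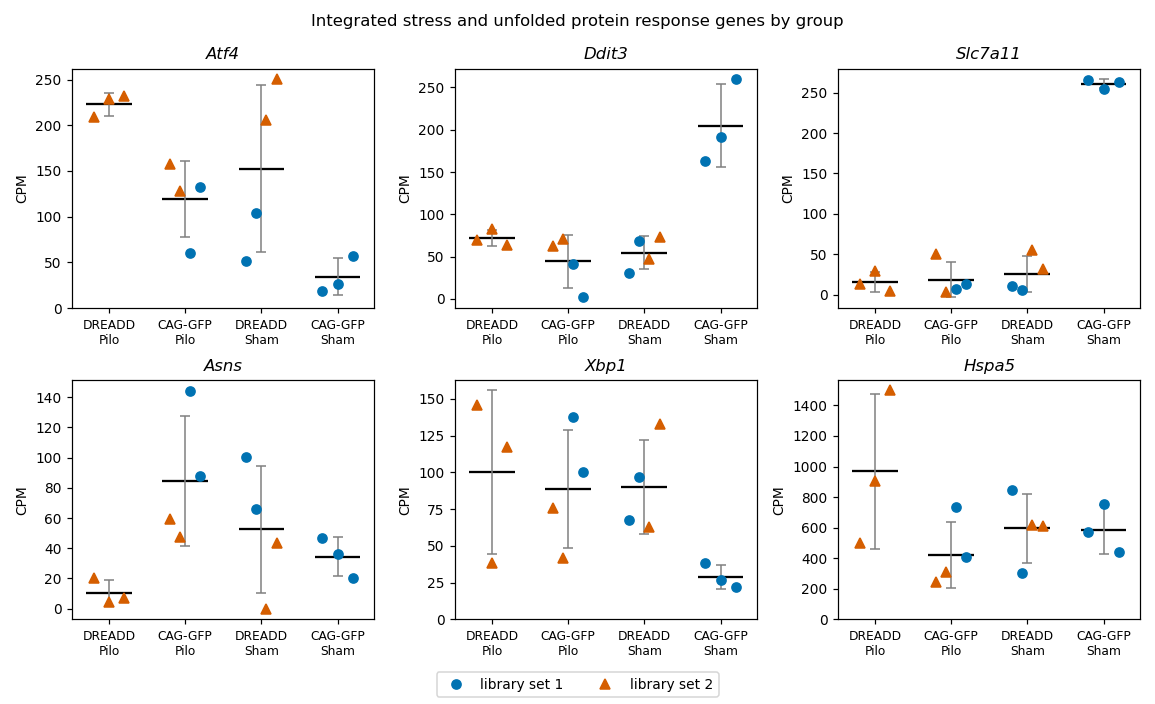
CPM (y axis) of Atf4, Ddit3, Slc7a11, Asns, Xbp1 and Hspa5 in each library by group, with the mean (bar), the SD (whiskers) and symbols for the 2 library sets. Ddit3 and Slc7a11 are high in the 3 CAG-GFP Sham libraries, where Atf4 and Xbp1 are low, and Asns is low in the 3 DREADD Pilo libraries.

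In the unfolded protein response, Xbp1, whose mRNA is spliced by the sensor IRE1 under stress, had 146, 38.2 and 117 CPM in DREADD Pilo, 75.9, 42.1, 137 and 100.2 CPM in CAG-GFP Pilo, 67.6, 96.9, 63.2 and 133 CPM in DREADD Sham, and 38.1, 26.9 and 22.0 CPM in CAG-GFP Sham. Every library of the other groups lay above the CAG-GFP Sham range, DREADD Pilo 2 by the smallest margin (38.2 against 38.1 CPM). The log2 fold change was 1.62 ± 0.62 for CAG-GFP Pilo against CAG-GFP Sham (edgeR adjusted p = 0.286, DESeq2 adjusted p = 0.0456) and 1.64 ± 0.62 for DREADD Sham against CAG-GFP Sham (edgeR adjusted p = 0.224, DESeq2 adjusted p = 0.0247). Within library set 1 the Xbp1 values were 2.00 ± 0.48 (edgeR adjusted p = 0.0796) and 1.49 ± 0.48 (edgeR adjusted p = 0.204).

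Hspa5, the gene of the chaperone BiP, had 497, 905 and 1502 CPM in DREADD Pilo, 244, 309, 733 and 406 CPM in CAG-GFP Pilo, 849, 302, 620 and 613 CPM in DREADD Sham, and 569, 754 and 440 CPM in CAG-GFP Sham. The highest value was in DREADD Pilo 3, and the groups overlapped. For DREADD Pilo against CAG-GFP Pilo the log2 fold change was 1.19 ± 0.54 (edgeR adjusted p = 0.882), and 0.70 without DREADD Pilo 3. For CAG-GFP Pilo against CAG-GFP Sham it was -0.47 ± 0.54 (edgeR adjusted p = 0.724), and for DREADD Sham against CAG-GFP Sham 0.02 ± 0.54 (edgeR adjusted p = 1). Herpud1, which takes part in the degradation of misfolded proteins, had a mean ± SD of 168 ± 55.5 CPM in the 3 DREADD Pilo libraries, 133 ± 45.8 CPM in the 4 of CAG-GFP Pilo, 136 ± 63.5 CPM in the 4 of DREADD Sham and 113 ± 17.6 CPM in the 3 of CAG-GFP Sham. Its groups overlapped in every comparison.

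Dnajc3, an endoplasmic reticulum co-chaperone that restrains PERK, had 49.8, 113 and 276 CPM in DREADD Pilo, against 56.6, 49.5, 7.88 and 34.7 CPM in DREADD Sham (log2 fold change 1.97 ± 0.72, edgeR adjusted p = 0.954). The libraries overlapped, and the highest was again DREADD Pilo 3. The p53 target Gpx1, a glutathione peroxidase, had 965, 604 and 678 CPM in DREADD Pilo, against 263, 185, 371 and 345 CPM in DREADD Sham (log2 fold change 1.36 ± 0.49, edgeR adjusted p = 0.954). All DREADD Pilo libraries of Gpx1 were higher. Sqstm1, an autophagy receptor induced by stress, had 624, 727, 362 and 855 CPM in CAG-GFP Pilo, against 159, 245 and 197 CPM in CAG-GFP Sham (log2 fold change 1.68 ± 0.47, edgeR adjusted p = 0.198), with no overlap.

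None of the further pathway genes passed the edgeR test in any comparison. Of 24 tested further p53 targets, 4 had an unadjusted p under 0.05 for CAG-GFP Pilo against CAG-GFP Sham (2 higher, 2 lower), 1 for DREADD Pilo against DREADD Sham, 1 for DREADD Pilo against CAG-GFP Pilo and 4 for DREADD Sham against CAG-GFP Sham (3 higher, 1 lower). Of 30 further genes of the integrated stress response, these counts were 7 (3 higher, 4 lower), 0, 1 and 5 (4 higher, 1 lower). Of 20 further genes of the unfolded protein response, they were 1, 3, 1 and 2. The share of all tested genes with an unadjusted p under 0.05 was 15.4%, 5.18%, 5.36% and 18.6%. In the same order of comparisons, the median log2 fold change of all tested genes was 0.41, 0.07, 0.28 and 0.53. For the further p53 targets it was 0.24, 0.24, 0.77 and 0.78. For the further genes of the integrated stress response it was 0.04, -0.15, -0.22 and 0.20. For those of the unfolded protein response it was -0.07, 0.35, 0.69 and -0.13.

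An interaction was tested, the DREADD Pilo minus DREADD Sham difference less the CAG-GFP Pilo minus CAG-GFP Sham difference. No member and 0% of tested genes passed. Ddit3 and Slc7a11 had an unadjusted p under 0.05, against 11.7% of tested genes. DESeq2 called 0 members and 1461 of the 18676 tested genes. A positive interaction was found for 19 of 33 members, against 42.8% of tested genes. It was also positive for all 12 astrocyte markers. All tested markers of oligodendrocytes (10), their precursors (8), immature neurons (11), mature granule cells (12) and interneurons (6) had a negative one. Those of the other lists were mixed. The part of cell content in the interaction was not tested. With library set as a covariate, the median interaction of all genes moved by 0.60 (log2). The interaction was 3.09 ± 1.28 on the log2 scale for Slc7a11 and 2.60 ± 1.10 for Ddit3 (edgeR adjusted p = 0.412 for each); both were lower in every CAG-GFP Pilo library than in any CAG-GFP Sham library, and their DREADD groups overlapped. It was -3.63 ± 1.88 for Asns (edgeR adjusted p = 0.454), 3.65 ± 1.02 for Dnajc3 (edgeR adjusted p = 0.309) and -1.68 ± 0.64 for Sqstm1 (edgeR adjusted p = 0.412). For Trp53, Cdkn1a, Atf4 and Hspa5 it was -0.97 ± 1.19, -1.43 ± 1.20, -1.25 ± 0.86 and 1.17 ± 0.76, none past the test.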

How the data were processed

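The authors deposited raw counts per gene for 14 libraries. The submitters' processing notes list edgeR, R 4.1.1, Subread, featureCounts and Bowtie2, and the build hg38, which does not match the mouse identifiers of the table. How strand and reads with several matches were treated is not given there. Symbols came from GENCODE M21 (GRCm38) for 42462 of 43346 identifiers.

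Libraries were grouped by title. The tests used edgeR 4.0.16 (R 4.3.3: TMM, filterByExpr, quasi-likelihood F-test, 1 fit of 14 libraries, Benjamini-Hochberg adjustment over all tested genes, threshold 0.05). The code was first run on simulated data with a smaller spread than these and no library sets, which does not show how the test performs here. SEs are the fold change over the square root of F. The biological coefficient of variation was 1.47. CPM use library size and TMM factor. DESeq2 1.42.0 was an alternative. Copies are exon matches of at least 90% identity over 300 bases (BLAST 2.17.0).

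Named genes were members past the test, those with at least 5 CPM whose libraries did not overlap, the 3 smallest p per comparison, and Trp53, Cdkn1a, Atf4, Ddit3 and Hspa5, with the 2 further pathway genes of smallest p. Other members are given for completeness. The members and all lists were chosen with earlier results of these data known.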

Additional observations from a re-analysis of the deposited data

Results flagged for a closer look

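In groups of 4 libraries, Dixon's ratio (the gap of the end library to its nearest neighbour over the whole range) was above its critical value for 4 samples in 7 of 68 member groups, where chance flags about 1 in 20 groups of normally distributed values; that rate does not apply to the 5 groups with no counts in all but 1 library, whose ratio is 1 by construction. Mdm2 in DREADD Sham had a ratio of 0.83, with 13.9 CPM in DREADD Sham 4 against 49.2 to 56.4 CPM in the other libraries. Perp in DREADD Sham had a ratio of 0.853, with 31.5 CPM in DREADD Sham 4 against 7.24 to 10.8 CPM. Perp in CAG-GFP Pilo had a ratio of 1, with 8.59 CPM in CAG-GFP Pilo 3 and no counts in the other libraries. Eda2r had a ratio of 1 in CAG-GFP Pilo (0.420 CPM in 1 library) and in DREADD Sham (3.41 CPM in 1 library), and Trib3 a ratio of 1 in CAG-GFP Pilo (0.0247 CPM) and in DREADD Sham (0.218 CPM), each with no counts in the other libraries of the group.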

How the results depend on the processing

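The 60 named fold changes were recomputed in 931 combinations with other settings: 895 kept direction and side of the threshold, 20 passed it newly (15 of them with DESeq2) and 16 changed sign. The cause of each change was not tested.

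Counts are given in the order of the report: seizure effect in CAG-GFP cells, seizure effect in DREADD cells, DREADD Pilo against CAG-GFP Pilo, the Sham groups, and interaction. The genes past the test numbered 45, 0, 0, 56 and 0. They numbered 2203, 158, 172, 2655 and 1461 with DESeq2, where 5, 0, 0, 4 and 0 members passed. With library set as a covariate they numbered 89, 2, 0, 146 and 11, with 1 member (Slc7a11) in each comparison with CAG-GFP Sham. Within library set 1 they numbered 471 for CAG-GFP Pilo and 530 for DREADD Sham against CAG-GFP Sham, with 2 members and 1 member. When CAG-GFP Sham was summed into 1 sample, 0 genes passed in each. Without the filter on low counts, 3 genes passed for the interaction. Leaving out each library gave 3 to 15, 0, 0, 6 to 12 and 0 to 1 genes (1 without DREADD Pilo 3), and 0 members in each.

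Cdkn1a changed sign for CAG-GFP Pilo against CAG-GFP Sham with the covariate (-0.41) and without CAG-GFP Sham 3 (-0.12, range without each library -0.12 to 1.01), for DREADD Pilo against CAG-GFP Pilo with the covariate (-0.50), and for DREADD Sham against CAG-GFP Sham within set 1 (-0.28). Trp53 changed sign for CAG-GFP Pilo against CAG-GFP Sham without CAG-GFP Sham 1 (-0.041, range -0.041 to 0.77), and for DREADD Pilo against CAG-GFP Pilo without CAG-GFP Pilo 4 (0.06), without DREADD Pilo 3 (0.15, range -0.88 to 0.15) and with the copies added (0.073). For DREADD Pilo against DREADD Sham, Ddit3 was at -0.12 with the covariate, and within set 2 Atf4 was at -0.033 and Phgdh at 0.23. Hspa5 for DREADD Sham against CAG-GFP Sham was at -0.053 within set 1, at -0.00045 without CAG-GFP Sham 1, -0.15 without CAG-GFP Sham 3 and -0.20 without DREADD Sham 1 (range without each library -0.20 to 0.24).

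Libraries with the same replicate number did not deviate together: the 19 correlations ran from -0.381 to 0.115, 1 was over 0.1, and 1 of 14 libraries correlated best with its own number. With the replicate block, 1, 0, 0, 0 and 0 genes and 0 members passed, and Hspa5 for DREADD Sham against CAG-GFP Sham was at -0.047; Mdm2 for DREADD Pilo against DREADD Sham was at 0.035 ± 1.57 with the block, in place of 0.92. DESeq2's size factors moved the median of all genes by 0.10 (log2) for DREADD Pilo against CAG-GFP Pilo. Set 1 held no DREADD Pilo library and set 2 no CAG-GFP Sham library, so no within-set value exists for the interaction.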
